A study of Mus musculus with 6 samples.

Results

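Genes of the G1 checkpoint and the p53 pathway were followed in primary mouse lung fibroblasts (LFs) exposed to TGFβ. They were 5 inhibitors of cyclin-dependent kinases (CDKs), Cdkn1a, Cdkn1b, Cdkn2a, Cdkn2b and Cdkn2c, the D-type cyclins Ccnd1 and Ccnd2, and the p53 pathway genes Trp53, Mdm2 and Ccng1. The rule that picks these genes goes by symbol and uses no measured value, although the list was drawn up with earlier results of these data known. They made up 10 of the 55364 genes listed. Of these, 9 had enough reads to be tested, among 10346 genes tested in all. The libraries were 3 from wild-type (WT) LFs and 3 from LFs whose labels read TKS5 KO, all exposed to 10 ng/ml TGF-β1 for 24 h in serum-free medium. Tks5, encoded by Sh3pxd2a, is a scaffold protein of podosomes, the actin-rich structures with which cells degrade matrix. By the study's methods, the LFs came from C57Bl6/J mice of 8 to 10 weeks and were used at passage 2 to 3. The study describes the mutant mice as Tks5+/-, carrying 1 allele without exon 11 that was made with Cre under the CMV promoter, and did not obtain mice without both alleles. The label and the study thus name the genotype differently, and the group is called here by its label. The study calls its samples biologically independent, but no source used here says whether the 3 libraries of a group came from different mice, so the p-values measure only the spread between these libraries. No library without TGFβ was part of the series, so that a response to TGFβ could not be measured.

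In G1, D-type cyclins activate CDK4 and CDK6, which phosphorylate the retinoblastoma protein and release the E2F factors that turn on the genes of S phase. The INK4 inhibitors (Cdkn2a to Cdkn2d) bind CDK4 and CDK6, while the Cip/Kip inhibitors (Cdkn1a to Cdkn1c) act on cyclin-CDK complexes more widely. The transcription factor p53 drives Cdkn1a in response to damage and other stress, and it also drives Mdm2, whose product ubiquitinates p53 and so closes a feedback loop. In fibroblasts these genes are known for arrest and senescence, and in many cell types TGFβ acts through Cdkn2b and Cdkn1a to hold cells in G1.

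The libraries were made by Quant-Seq, which reads the 3′ end of polyadenylated RNA, and held 1344507 to 2369882 counted reads. The TMM scaling factors, which adjust for differences in RNA composition, were 1.15 to 1.17 in the WT libraries and 0.817 to 0.932 in the others. Sh3pxd2a had 205 (replicate 1), 190 (replicate 2) and 284 (replicate 3) reads in WT. The libraries labelled TKS5 KO had 238, 258 and 260 (log2 fold change 0.29, standard error 0.20, edgeR adjusted p = 0.249). These reads come from the 3′ UTR, outside the deleted exon, so the deletion itself cannot be seen in them. By quantitative PCR, the study reported less Tks5 mRNA in its Tks5+/- LFs. The 3′ UTR reads did not show such a difference, and the reason was not tested. Fibroblast markers were abundant in all 6 libraries, with a summed level of 14171 to 15916 CPM (counts scaled to a common library size) in WT and 17518 to 19773 CPM in the libraries labelled TKS5 KO. In these sums S100a4 alone averaged 9108 and 11420 CPM. Of the 12 markers, 4 were higher (33.3%, against 22.8% of all tested genes) and 2 lower (16.7%, against 22.1%). Thy1 (3.81-fold), Vim (2.41-fold), Pdgfra (1.61-fold) and Col3a1 (1.56-fold) were higher, and Fn1 (2.92-fold) and Pdgfrb (2.0-fold) lower. Of the 12 macrophage markers, 9 were tested and 5 were lower (55.6%, against 22.1% of all tested genes). Their summed CPM were 353, 321 and 1872 in WT and 121, 135 and 139 in the libraries labelled TKS5 KO, where Ptprc and Adgre1 were at 0. WT replicate 3 thus stood apart. The summed mesothelial markers were at 27.8 to 38.6 CPM in WT and 5.12 to 14.3 CPM in the others, and the endothelial markers at 109 to 135 and 45.6 to 60.4 CPM, with Pecam1, Tek and Vwf at 0 in the libraries labelled TKS5 KO. The summed epithelial markers overlapped (32.1 to 67.1 and 29.7 to 62.0 CPM), but their genes diverged. Ager was 3.53-fold higher, whereas Cldn4 was lower, with 23, 15 and 50 counts in WT and 0, 3 and 0 in the libraries labelled TKS5 KO, and so was Krt18, with 9, 11 and 31 against 0, 0 and 1. In the latter libraries 7 of the 10 epithelial markers were at 0, Epcam, Cdh1, Krt8 and Foxj1 among them, and Sftpc, Sftpb and Scgb1a1 were at 0 in all 6 libraries. The smooth muscle and pericyte markers summed to 4865 to 5750 CPM in WT and 6287 to 7169 CPM in the others. Acta2, which the study also counts as a marker of activated LFs, alone averaged 4610 and 4283 CPM. It was not called (log2 fold change -0.11, edgeR adjusted p = 0.71). Tagln (3.96-fold) and Cnn1 (1.99-fold) were higher and Cspg4 (11.7-fold), Des (2.73-fold) and Myh11 (2.4-fold) lower. The part of these cell types in the results was not tested. In such bulk samples, fewer cells of a type and less RNA per cell cannot be told apart.

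In the libraries labelled TKS5 KO, Cdkn1a, Mdm2 and Ccng1 were lower and Cdkn1b, Cdkn2c, Ccnd1 and Ccnd2 were higher than in WT. Among the 9 tested, 7 passed the threshold, which asked for a 1.2-fold change or more with adjusted p below 0.05. At this threshold 44.9% of all tested genes were called, 22.1% lower and 22.8% higher, so calls were frequent across the transcriptome. The CPM of the groups did not overlap for 7 of the 9, against 53.8% of all tested genes. The median log2 fold change of all tested genes was -0.05. An exact two-sided permutation test of the CPM gave p = 0.1, the smallest that 3 libraries against 3 allow, for the 7 members without overlap. Without WT replicate 3, the library rich in macrophage markers, 5 members were called, 3 lower and 2 higher, with Cdkn2c and Ccnd2 no longer past the threshold.

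**Figure D1:**
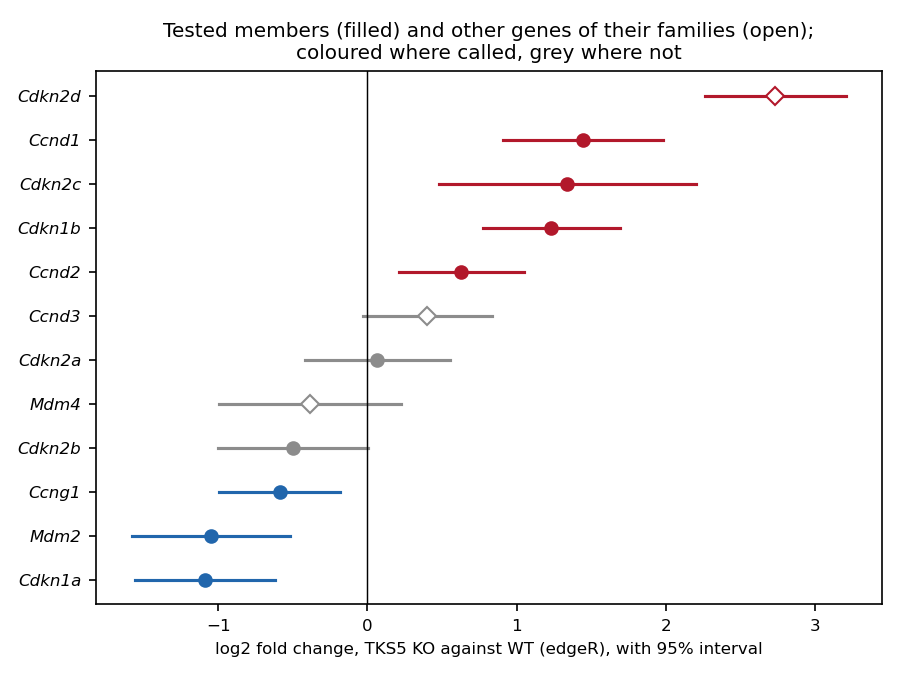
Log2 fold change (TKS5 KO-labelled minus WT libraries) of the 9 tested members (filled circles) and of Cdkn2d, Ccnd3 and Mdm4 (open diamonds) from edgeR, with bars for the 95% interval, in colour where called and grey where not. Cdkn1a, Mdm2 and Ccng1 lie below 0, Cdkn1b, Cdkn2c, Ccnd1 and Ccnd2 above it, and the intervals of Cdkn2a and Cdkn2b include 0.

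The p53 gene itself had few reads. Trp53 (ENSMUSG00000059552, chr11:69580359-69591873, forward strand of GRCm38) had 5, 8 and 6 counts in the WT libraries and 6, 4 and 4 in those labelled TKS5 KO, or 3.24 ± 1.03 and 2.56 ± 0.651 CPM (SD, n = 3). The groups overlapped, and the gene fell below the filter on low counts. With no filter its log2 fold change was -0.32 (edgeR adjusted p = 0.77), so a difference was not detectable at this depth.

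Mdm2 (ENSMUSG00000020184, chr10:117688875-117710758, reverse strand), the ubiquitin ligase and feedback inhibitor of p53, had 512, 579 and 770.5 CPM in WT (replicates 1 to 3). In the libraries labelled TKS5 KO it had 201, 257 and 442 CPM. The groups did not overlap, although replicate 3 was the highest of each. The level was 2.07-fold lower (log2 fold change -1.05, standard error 0.26, edgeR adjusted p = 0.00225). Fits that left out 1 library gave log2 fold changes from -1.40 to -0.78, and all of them called the gene. In the authors' normalized table it was -1.75.

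Cdkn1a (ENSMUSG00000023067, chr17:29090976-29100727, forward strand) encodes p21, the Cip/Kip inhibitor through which p53 halts the cell cycle. It had 338.5, 365.5 and 283 CPM in the WT libraries and 199, 105 and 160 CPM in those labelled TKS5 KO. Every library labelled TKS5 KO was below every WT library. The mean fell from 329 ± 41.9 to 155 ± 47.1 CPM (SD, n = 3), which was 2.12-fold (log2 fold change -1.09, standard error 0.23, edgeR adjusted p = 0.000517). Cdkn1a was called in all 20 alternative analyses, at log2 fold changes from -1.49 to -0.85.

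Ccng1 (ENSMUSG00000020326, chr11:40748552-40755311, reverse strand) encodes cyclin G1, a p53 target that recruits a phosphatase to Mdm2. Its CPM were 170, 160 and 162 in WT and 110, 102 and 115 in the libraries labelled TKS5 KO. The groups were tight and apart. It was 1.5-fold lower (log2 fold change -0.59, standard error 0.20, edgeR adjusted p = 0.0181). The call was lost without WT replicate 2 (edgeR adjusted p = 0.0564) or TKS5 KO-labelled replicate 2 (edgeR adjusted p = 0.0726), with log2 fold changes of -0.61 and -0.51. Scaled by library totals, it stood at -1.003.

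**Figure D2:**
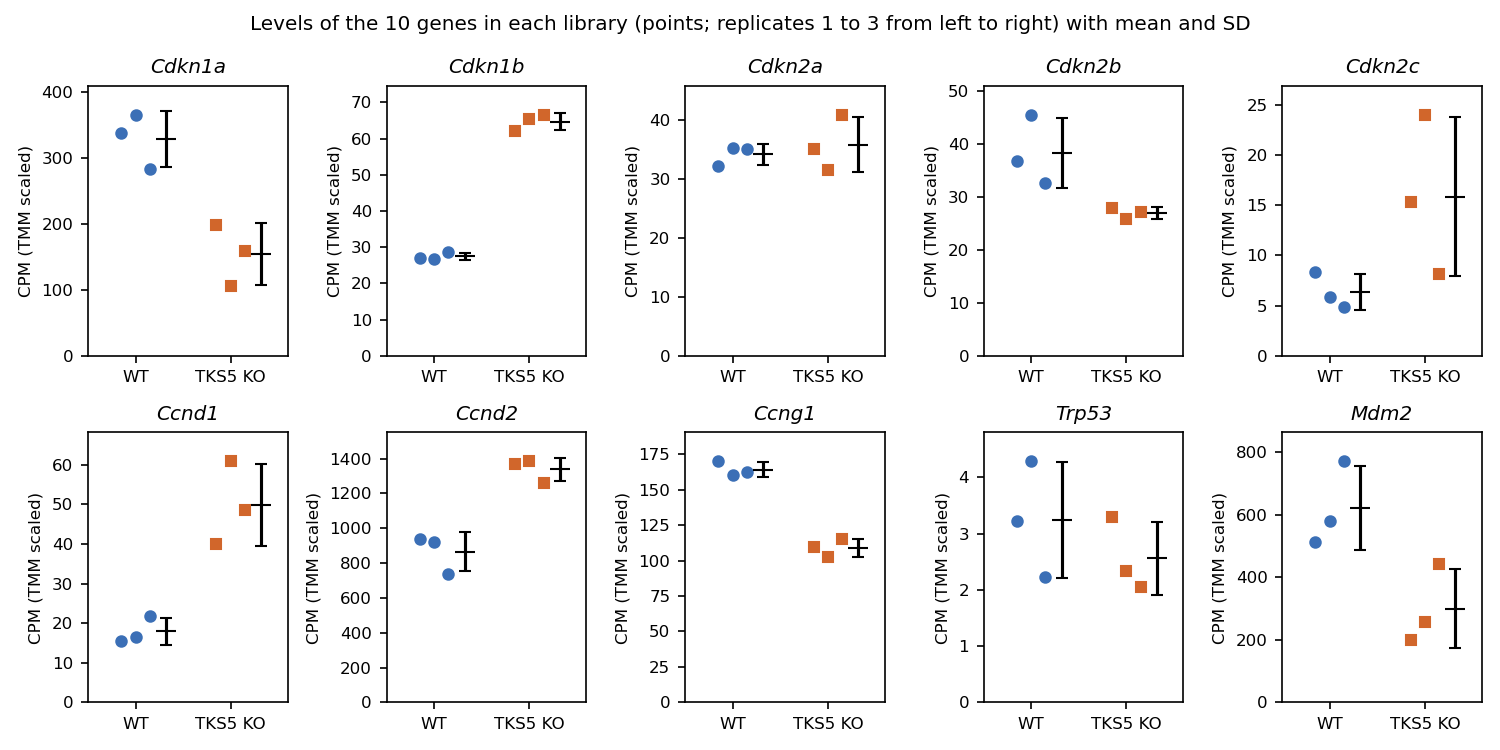
CPM (TMM scaled, linear axes that start at 0) of the 10 members in each of the 3 WT and 3 TKS5 KO-labelled libraries. Each point is a library and the bar beside the points the mean ± SD of 3, and the groups are apart for Cdkn1a, Cdkn1b, Cdkn2b, Ccnd1, Ccnd2, Ccng1 and Mdm2.

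The p53 response element is made of 2 decamers in a row, each able to bind a pair of p53 molecules. It was looked for on both strands, with no spacer, in the RefSeq promoter windows of GRCm38.p6, each from 250 bases before to 50 bases after a transcript start. Windows were found for 8 of the 10 members, Ccnd1 and Ccnd2 being without one. Among the members with a window, Cdkn1a and Ccng1 held an element with at most 1 of its 20 bases off, and both were lower in the libraries labelled TKS5 KO. For Cdkn1a the element was in the window of its upstream start, and the window of its downstream start held none. The elements of Cdkn1a and Ccng1 are shown because both genes are p53 targets. The capitals mark the 20-base element, at chr17:29090923-29090952 (forward strand) for Cdkn1a, 51 to 32 bases before its upstream start, and at chr11:40755457-40755486 (reverse strand) for Ccng1, 195 to 176 bases before its start, with 5 flanking bases on each side.
Cdkn1a: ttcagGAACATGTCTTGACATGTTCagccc
Ccng1: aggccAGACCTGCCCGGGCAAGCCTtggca
Counted from 1 at the 5′ end of the element, the base off is at position 11 in Cdkn1a and at position 5 in Ccng1. Of 32851 windows, 22 (0.067%) held an element with at most 1 base off. A single perfect decamer was more frequent, in 8.36% of windows, and the windows of Cdkn1a (2), Ccng1 (1), Mdm2 (1) and Trp53 (1) held it. Of the 22 genes with a window that held an element, 6 were tested. Cdkn1a and Ccng1 were lower (33.3%, against 22.1% of all tested genes). Rps27l and Gtse1 were higher (33.3%, against 22.8%), and Calhm2 and Mthfd1 were not called. The median log2 fold change of the 6 was 0.09, against -0.05 for all tested genes. A match in these windows is a match of letters, and binding was not measured.

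Other direct targets of p53 were taken from a list of 40 genes, of which 33 were tested. In the libraries labelled TKS5 KO, 14 were lower (42.4%, against 22.1% of all tested genes), 5 were higher (15.2%, against 22.8%) and 14 were not called. The median log2 fold change of the list was -0.61, against -0.05 for all tested genes. Genes of cell death were among the 14 lower: the death receptors Tnfrsf10b (log2 fold change -1.74) and Eda2r (-1.37), the pro-apoptotic BH3-only gene Pmaip1 (-0.97), the effector Bax (-0.72), the nuclease Aen (-0.91) and Phlda3, an inhibitor of Akt (-0.96). The anti-apoptotic Bcl2l1 was lower as well (-1.13). Stress genes were also lower, namely Trp53inp1, which promotes autophagy and cell death (-2.05), Sesn2, an inhibitor of mTORC1 (-1.47), Ephx1, an epoxide hydrolase (-1.31), the cytokine Gdf15 (-1.22), the kinase Plk3 (-1.08) and the RNA-binding Zmat3 (-0.92). Rps27l (1.87), Ccng2 (1.81), Gtse1 (1.09), Btg2 (0.74) and Ak1 (0.56) were higher, and Gtse1 is also a gene of G2 phase.

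The 4 target genes with the smallest adjusted p moved in both directions. Sfn, which encodes 14-3-3σ and keeps cells in G2, had 109, 137.5 and 169 CPM in WT and 6.04, 13.5 and 21.0 CPM in the libraries labelled TKS5 KO. It was 10.2-fold lower (edgeR adjusted p = 1.17e-07), with no overlap. Sfn is also known as a gene of epithelial cells, and the epithelial markers Krt18 and Cldn4 were lower in the same libraries, with Epcam, Cdh1 and Krt8 at 0. The part of epithelial cells in this difference was not tested. Trp53inp1 was 4.15-fold lower, from 37.2 ± 1.62 to 8.91 ± 1.42 CPM (SD, n = 3, edgeR adjusted p = 5.41e-06). Rps27l, a ribosomal protein paralog, was 3.66-fold higher (110 ± 12.7 to 403 ± 53.9 CPM, SD, n = 3, edgeR adjusted p = 3.64e-07). Its log2 fold change of 1.87 was 1.15 with transcript length corrected and 0.71 with GC content added, and it was still called. Ccng2, the paralog of Ccng1, was 3.51-fold higher (21.1 ± 6.56 to 72.5 ± 7.55 CPM, SD, n = 3, edgeR adjusted p = 5.37e-06). The cyclins G1 and G2 thus differed from WT in opposite directions. Fas, Apaf1, Bbc3, Gadd45a and Ppm1d, also known targets of p53, were not called, with log2 fold changes from -0.34 (Gadd45a) to 0.50 (Bbc3).

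**Figure D3:**
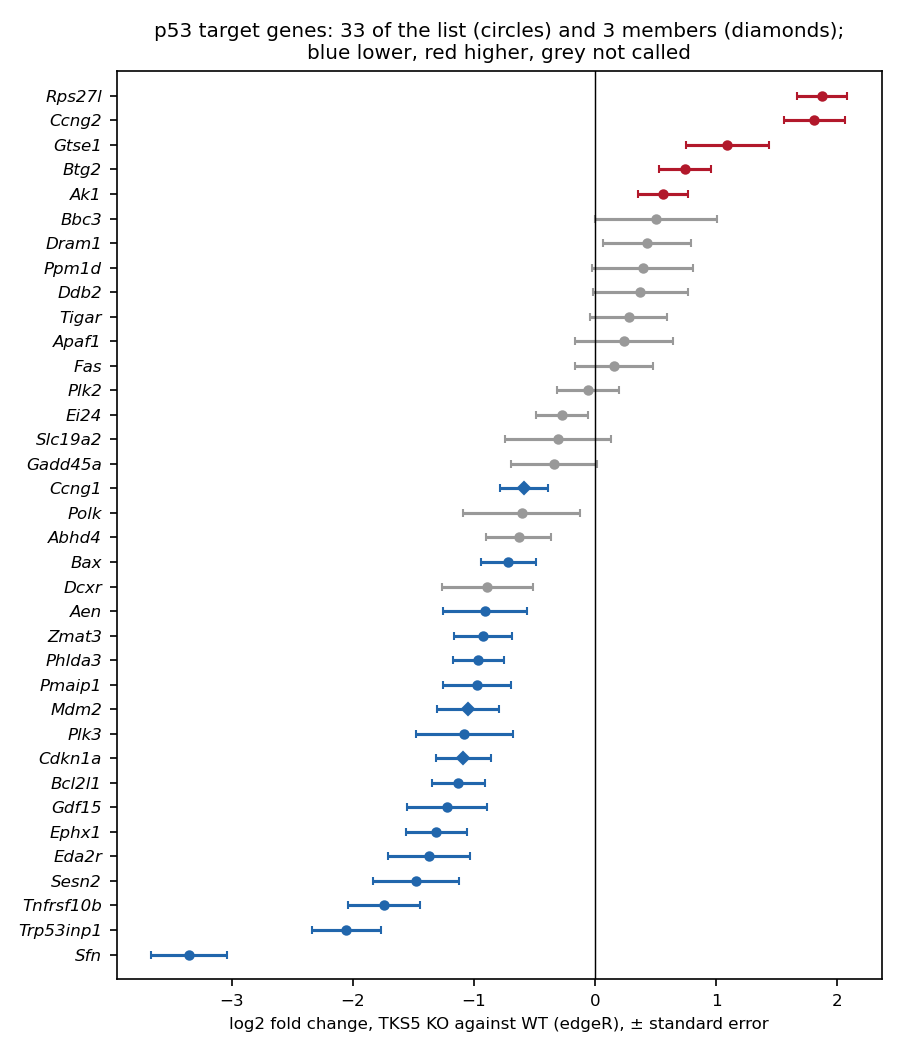
Log2 fold change (TKS5 KO-labelled minus WT libraries) of the 33 tested p53 target genes (circles) and of Cdkn1a, Mdm2 and Ccng1 (diamonds), with bars for the standard error, in blue where lower, red where higher and grey where not called. Of the 33 list genes 14 are called lower and 5 higher, from -3.35 for Sfn to 1.87 for Rps27l.

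Genes that act on p53 formed another list. Of 28 listed, 19 were tested, 4 were lower (21.1%, against 22.1% of all tested genes) and 2 higher (10.5%, against 22.8%), and the median log2 fold change was -0.03. Mdm4, the paralog of Mdm2 that masks the p53 activation domain, had 18.7, 21.4 and 26.7 CPM in WT and 13.2, 22.8 and 15.9 CPM in the libraries labelled TKS5 KO. The groups overlapped and it was not called (log2 fold change -0.38, 95% interval -0.99 to 0.23, edgeR adjusted p = 0.303). It turned to 0.10 with a correction for transcript length and to 0.02 with GC content added, and reached -0.81 (edgeR adjusted p = 0.0261) when scaled by library totals alone. The ribosomal proteins Rpl11 and Rpl23, which can bind Mdm2 and hold it off p53, were 2.74-fold and 2.5-fold higher. In the authors' normalized table their log2 fold changes were 0.59 and 0.69, in place of 1.46 and 1.32, and with GC content and transcript length corrected Rpl23 was at 0.46 and no longer called (edgeR adjusted p = 0.0631). Rpl5, also a ribosomal protein on this list, was not called (log2 fold change 0.39, edgeR adjusted p = 0.147). The deubiquitinase Usp10, which removes ubiquitin from p53, was 2.47-fold lower, and the ligase Wwp1 was 1.87-fold lower. Usp7 (log2 fold change -0.61) and Npm1 (-0.67) were lower as well. The call of Wwp1 was lost in 7 alternatives, DESeq2 and length correction among them, and its 3′ UTR overlaps Gm12353 on the opposite strand.

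The other Cip/Kip inhibitor measured went the other way from Cdkn1a. Cdkn1b (ENSMUSG00000003031, chr6:134920401-134925513, forward strand) encodes p27, which blocks cyclin E-CDK2 in resting cells. Its CPM were 27.0, 26.8 and 28.6 in WT and 62.0, 65.5 and 66.5 in the libraries labelled TKS5 KO. Both groups were narrow and far apart. It was 2.35-fold higher (log2 fold change 1.23, standard error 0.22, edgeR adjusted p = 0.000109) and was called in all 20 alternatives, at log2 fold changes from 0.82 (library totals) to 1.49. Cdkn1c, the remaining gene of this family, had 0, 4 and 2 counts in WT and 0, 0 and 1 in the others, at or under 3 counts in 5 of 6 libraries, and was not tested.

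Among the INK4 genes, the neighbours Cdkn2a and Cdkn2b on chromosome 4 were not called, and Cdkn2c and Cdkn2d were higher. Cdkn2a (ENSMUSG00000044303, chr4:89274471-89294653, reverse strand) encodes p16Ink4a, a marker of senescence, and p19Arf, which restrains Mdm2. Its 2 annotated transcripts end in the same last exon, so these counts cannot tell the proteins' transcripts apart. It had 32.2, 35.3 and 35.2 CPM in WT and 35.1, 31.6 and 40.9 CPM in the libraries labelled TKS5 KO. The groups overlapped (log2 fold change 0.07, 95% interval -0.42 to 0.55, edgeR adjusted p = 0.836), and its sign turned with the scaling, at -0.35 with library totals (edgeR adjusted p = 0.235) and -0.01 in the authors' normalized table (limma adjusted p = 0.981).

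Cdkn2b (ENSMUSG00000073802, chr4:89306299-89311039, reverse strand) encodes p15, a textbook target of TGFβ. Its CPM were 36.7, 45.5 and 32.6 in WT and 28.0, 25.8 and 27.1 in the libraries labelled TKS5 KO. All 3 of the latter were below the WT libraries, yet the difference missed the threshold (log2 fold change -0.50, 95% interval -1.0 to 0.0058, edgeR adjusted p = 0.1). It passed in 3 of 20 alternatives, with a log2 fold change of -0.91 when scaled by library totals (edgeR adjusted p = 0.00485) and -0.90 with a correction for transcript length (edgeR adjusted p = 0.00562).

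Cdkn2c (ENSMUSG00000028551, chr4:109660876-109667189, reverse strand) encodes p18 and was low. It had 13, 11 and 13 counts in WT and 28, 41 and 16 in the libraries labelled TKS5 KO, or 8.37, 5.89 and 4.82 CPM and 15.4, 24.0 and 8.19 CPM. TKS5 KO-labelled replicate 3 lay just below WT replicate 1, and the exact permutation p was 0.2. The fit gave a 2.53-fold rise (log2 fold change 1.34, standard error 0.41, edgeR adjusted p = 0.0114). The call was lost without TKS5 KO-labelled replicate 2 (edgeR adjusted p = 0.108), without WT replicate 3 (edgeR adjusted p = 0.0521) and with DESeq2 (adjusted p = 0.0508).

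Cdkn2d encodes p19Ink4d, another INK4 inhibitor of CDK4 and CDK6. It had 37.3, 44.4 and 36.7 CPM in WT and 228, 333.5 and 226 CPM in the libraries labelled TKS5 KO. Every library of the latter was above every WT library, and the level was 6.64-fold higher (log2 fold change 2.73, standard error 0.23, edgeR adjusted p = 1.06e-08). Of the tested members and other genes of their families, it had the largest fold change.

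Both D-type cyclins among the members were higher. Ccnd1 (ENSMUSG00000070348, chr7:144929931-144939925, reverse strand) encodes cyclin D1, which growth factors and adhesion induce in fibroblasts. Its CPM were 15.5, 16.6 and 21.9 in WT and 40.1, 60.9 and 48.6 in the libraries labelled TKS5 KO. There was no overlap between the groups. It was 2.73-fold higher (log2 fold change 1.45, standard error 0.26, edgeR adjusted p = 0.000104) and was called in all 20 alternatives. Its 3′ UTR overlaps an exon of LTO1 on the opposite strand, and the counting's use of strand was not given in the sources used here.

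Ccnd2 (ENSMUSG00000000184, chr6:127125162-127152193, reverse strand) encodes cyclin D2, which shares CDK4 and CDK6 with cyclin D1. It had 936.5, 924 and 736 CPM in WT and 1367, 1384 and 1262 CPM in the libraries labelled TKS5 KO. The groups were apart, with a 1.55-fold rise (log2 fold change 0.63, standard error 0.20, edgeR adjusted p = 0.014). The size of this difference depended on the processing. It was 0.21 with library totals (edgeR adjusted p = 0.364) and 0.02 in the authors' normalized table (limma adjusted p = 0.928). With transcript length corrected it was 1.06 (edgeR adjusted p = 0.00015), and with GC content added 1.005 (edgeR adjusted p = 0.000223). Without WT replicate 3 it was 0.52 (edgeR adjusted p = 0.0821). Its annotated 3′ UTR overlaps Gm43126 on the opposite strand.

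Ccnd3, the remaining D-type cyclin, had 254, 299 and 387.5 CPM in WT and 436, 369 and 437.5 CPM in the libraries labelled TKS5 KO. The groups overlapped in part and it was not called (log2 fold change 0.40, 95% interval -0.03 to 0.83, edgeR adjusted p = 0.123), with a sign that turned to -0.01 with library totals and to -0.04 in the authors' normalized table. It was called higher in 5 alternatives, at log2 fold changes from 0.55 to 0.85. Its 3′ UTR overlaps Bysl on the opposite strand.

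**Figure D4:**
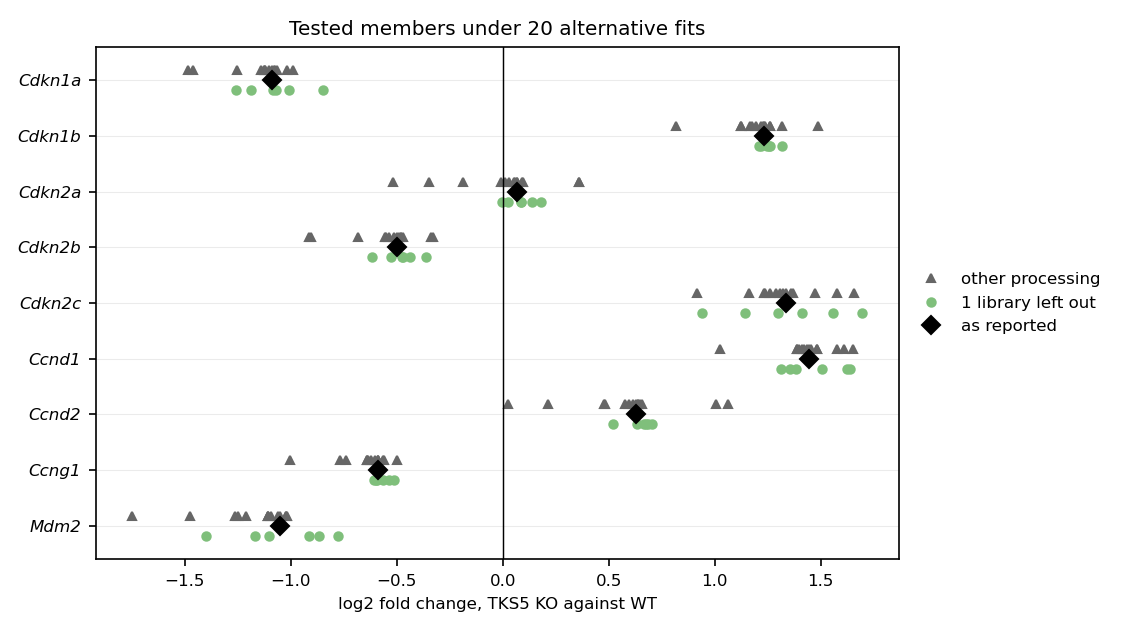
Log2 fold change of each tested member (TKS5 KO-labelled minus WT libraries) as reported (diamond), with 1 library left out (circles) and under the other processing (triangles), 20 alternatives in all. Cdkn1a, Mdm2 and Ccng1 stay below 0 and Cdkn1b, Cdkn2c, Ccnd1 and Ccnd2 above it in every analysis shown, while Cdkn2a lies on both sides of 0.

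The direct partners of the members in G1 were described by a further list. Of 28 other inhibitors, cyclins, kinases, pocket proteins and E2F factors, 24 were tested, 10 were higher (41.7%, against 22.8% of all tested genes), 2 were lower (8.33%, against 22.1%) and the median log2 fold change was 0.60. Cks1b, a cofactor through which p27 is marked for degradation, was 5.75-fold higher (118.5 ± 25.9 to 683 ± 202 CPM, SD, n = 3, edgeR adjusted p = 9.39e-08), and its log2 fold change of 2.52 was 1.65 with GC content and length corrected. Ccne1, cyclin E1, was 3.11-fold higher (13.8 ± 3.75 to 44.1 ± 6.28 CPM, SD, n = 3, edgeR adjusted p = 4.4e-05). Fbxo4, a substrate receptor linked to cyclin D1 turnover, was 3.24-fold higher. The kinases of these cyclins did not move together, since Cdk2 (log2 fold change 1.22) and Cdk4 (0.59) were higher and Cdk6 (-1.79) was lower. All 3 subunits of the CDK-activating kinase were higher, namely Cdk7 (1.22), Ccnh (1.11) and Mnat1 (1.01). The E2F partners split, with Tfdp1 higher (1.15) and Tfdp2 lower (-1.21). None of the pocket protein genes Rb1, Rbl1 and Rbl2 was called, with log2 fold changes of -0.10, 0.64 and 0.13, nor were the 5 tested E2F genes.

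Genes of the later phases of the cycle came next. Of 30 E2F target genes of S phase, 23 were tested, 7 were higher (30.4%, against 22.8% of all tested genes), 16 were not called, 0 were lower in edgeR (4 were lower when scaled by library totals) and the median log2 fold change was 0.48. The dUTPase Dut (4.61-fold), the replication factors Gins2 (3.43-fold) and Cdc45 (4.87-fold) and the sliding clamp Pcna (2.39-fold) had the smallest adjusted p, and Gins2 overlaps Gse1 on the opposite strand. With GC content and transcript length corrected, Pcna was at a log2 fold change of 0.54 in place of 1.26 and was not called (edgeR adjusted p = 0.0914). Of 30 genes of G2 phase and mitosis, 18 were tested. Of these, 11 were higher (61.1%, against 22.8% of all tested genes) and 1 was lower (5.56%, against 22.1%). Their median log2 fold change was 1.2. Cdk1, the kinase that starts mitosis, had 25.7, 26.2 and 25.6 CPM in WT and 167, 231 and 265 CPM in the libraries labelled TKS5 KO, which was 8.54-fold (edgeR adjusted p = 3.14e-09). The centromeric histone Cenpa (5.74-fold), Birc5, a subunit of the chromosomal passenger complex (4.6-fold), and the mitotic kinase Plk1 (2.98-fold, overlapped by Ern2 on the opposite strand) were higher too. The gene called lower was Cdc20 (log2 fold change -0.60). Not called were Mki67 (-0.49), Top2a (-0.22), Foxm1 (-0.17), Ccna2 (-0.01), Tpx2 (0.40) and Prc1 (0.69). By the MTT assay, the study reported decreased proliferation of its Tks5+/- LFs under TGFβ. Proliferation was not measured in these libraries, so the higher RNA levels cannot be read as more cycling cells. How they relate to the result of that assay was not tested.

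Genes used as markers of senescent fibroblasts and their secretion went in both directions. Of 30 listed, 23 were tested, 10 were lower (43.5%, against 22.1% of all tested genes), 5 were higher (21.7%, against 22.8%) and the median log2 fold change was -0.22. The chemokines Ccl2 (4.45-fold) and Ccl8 (4.29-fold) and the IGF-binding protein Igfbp2 (5.17-fold) were lower, whereas Igfbp4 was 5.2-fold higher. Glb1, which encodes the lysosomal β-galactosidase stained in senescent cells, was lower (log2 fold change -1.21, edgeR adjusted p = 0.00013). Lmnb1, a lamin whose loss marks senescence, was not called (log2 fold change -0.20). Macrophage markers were higher in WT, above all in WT replicate 3, as given above, and Mmp12, Ccl2 and Ccl8 are also known from macrophages. The part of macrophages in this list was not tested.

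Factors through which TGFβ and mitogens act on the members were also divided. Of 22 listed, 18 were tested, 7 were lower (38.9%, against 22.1% of all tested genes), 4 were higher (22.2%, against 22.8%) and the median log2 fold change was -0.16. Foxo3, a forkhead factor that drives Cdkn1b and joins Smads at Cdkn1a, was 2.77-fold lower, from 48.1 ± 2.19 to 17.3 ± 2.57 CPM (SD, n = 3, edgeR adjusted p = 5.45e-05), and its log2 fold change of -1.47 was -0.91 with GC content and length corrected. Foxo1 (log2 fold change -1.49), the repressor Mxd1 (-1.26), Klf4 (-1.71), Tgif1 (-0.65) and Zbtb17, the Myc partner Miz-1 (-0.97), were lower as well. The inhibitors of differentiation Id1 (3.53-fold) and Id3 (10.8-fold) and their paralog Id2 (log2 fold change 1.74) were higher. Gas1, a growth-arrest gene, was 18.1-fold higher, from 2.44 ± 2.34 to 40.8 ± 19.8 CPM (SD, n = 3, edgeR adjusted p = 3.62e-06).

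**Figure D5:**
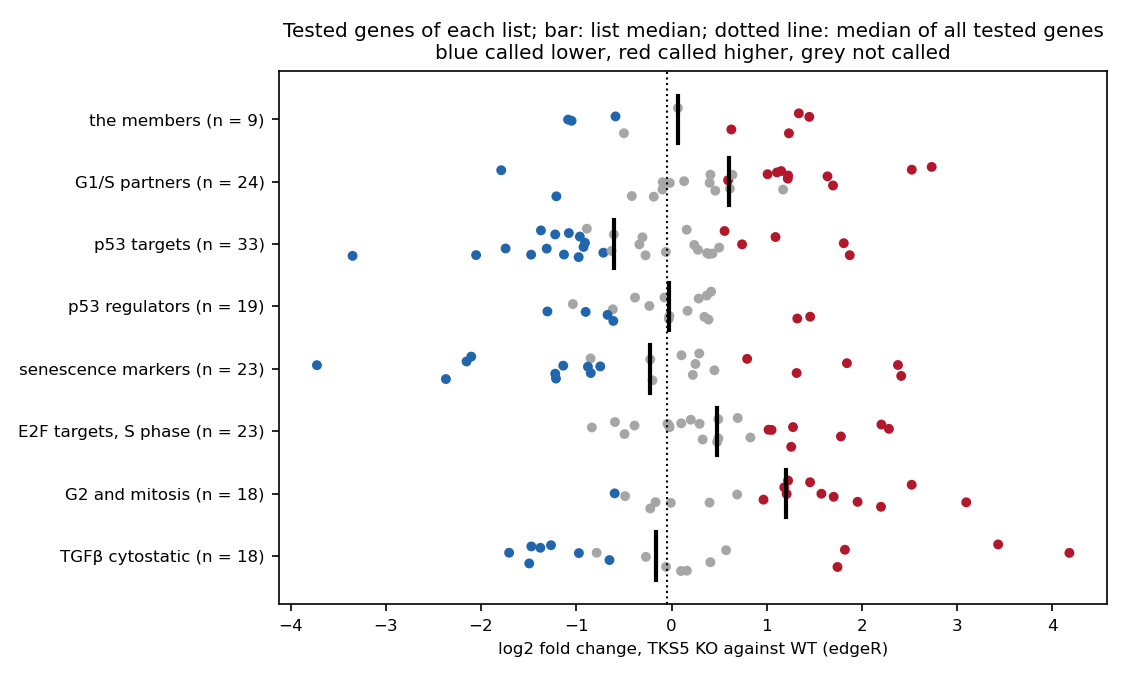
Log2 fold change (TKS5 KO-labelled minus WT libraries) of each tested gene of the members and 7 lists, 1 point a gene, in blue where lower, red where higher and grey where not called, with a bar at the list median and a dotted line at the median of all tested genes. The medians of the p53 targets (-0.61) and of the genes of G2 phase and mitosis (1.2) lie on opposite sides of the dotted line at -0.05.

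The genes most like Cdkn1a over the 6 libraries were sought among 8184 genes with at least 10 CPM on average. By Pearson's r of the log2 CPM they were Hnrnpa3 (0.998), the phosphatase gene Ptprs (0.998), the protease gene Adamts12 (0.996), Supt6 (0.996) and Nop58 (0.995). As in Cdkn1a, the lowest of the 6 values of each was in TKS5 KO-labelled replicate 2, and these r describe 6 libraries that share a group difference. With transcript length corrected, Hnrnpa3 (log2 fold change -0.76, edgeR adjusted p = 0.0675), Supt6 (-0.56, edgeR adjusted p = 0.0826) and Nop58 (-0.32, edgeR adjusted p = 0.437) were not called. With GC content added, Ptprs was not called (-0.34, edgeR adjusted p = 0.249). Adamts12, like Cdkn1a, was called under both corrections. Nop58 overlaps Gm26293 on the same strand.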

How the data were processed

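Quant-Seq libraries of TGFβ-exposed mouse LFs were compared, 3 WT and 3 labelled TKS5 KO. The deposited raw counts came from reads that the authors trimmed (Trim Galore) and aligned to GRCm38 (HISAT2, then Bowtie2 for unmapped reads), counted on 3′ UTRs (at least 300 base pairs, flank 50) and summed per gene. The authors' normalized values (EDASeq, rounded) served as a score in 1 alternative, as log2(score + 1) in limma. Whether the counting kept strand was not given in the sources used here. The files listed genes by Ensembl identifier, and 55104 of 55364 were matched to GENCODE M21 symbols. In 33644 genes no library had a count. No sample column was left unused.

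Counts were tested with edgeR 4.0.16 in R 4.3.3 (robust quasi-likelihood F test after filterByExpr and TMM scaling), with Benjamini-Hochberg adjustment over all 10346 genes tested, and called where the adjusted p was below 0.05 with a 1.2-fold change or more. The fit had a common dispersion of 0.0429 and 19.2 prior degrees of freedom (median). Every adjusted p of a gene comes from this test unless another tool is named, and standard errors and 95% intervals come from the fit and cover the spread between libraries. CPM used the scaled library sizes. With totals of 1344507 to 2369882 counts, a library at 0 allows up to 3 counts, for counting error only. The exact permutation tests covered 20 splits. Lists were described by counts and medians without a test.

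The members and lists were chosen with earlier results of these data known. Named were the members, Sh3pxd2a, Cdkn1c, Cdkn2d, Ccnd3, Mdm4, the 4 genes of each list with the smallest adjusted p, and the 5 tested genes of at least 10 CPM most like Cdkn1a (Pearson's r, log2(CPM + 1)). Further list genes were named after their values were seen, and markers where their list moved. Some list genes are not reported here. Of the listed symbols, Miz1 and Pirh2 were not matched, being older names of Zbtb17 and Rchy1. Promoter windows are RefSeq's, and the 3′ UTR overlaps come from GENCODE M21.

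The alternatives were DESeq2 1.42.0, limma-voom (limma 3.58.1), RLE, upper-quartile and library-total scaling, the authors' normalized values, no filter, at least 10 counts in every library, a test against a 1.2-fold change, loess corrections (span 0.5, prior count 2) for GC content and transcript length (longest transcript of a gene) alone and together, the replicate block with and without GC correction, and each library left out in turn. A p53 element with 2 bases off was added after the data were seen. The authors' combined test (PANDORA), enrichment and drug queries were not used here. Tables and plots were made with pandas 2.3.3, numpy 2.4.6, scipy 1.17.1 and matplotlib 3.10.9.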

Additional observations from a re-analysis of the deposited data

How the results depend on the processing

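Cdkn1a, Cdkn1b, Ccnd1 and Mdm2 were called in all 20 alternatives, Ccng1 in 18, Cdkn2c in 16, Ccnd2 in 15, Cdkn2b in 3 and Cdkn2a in 0. With library totals as the scaling, the median of all tested genes went from -0.05 to -0.46 (log2), with 1370 genes called higher and 3924 lower in place of 2356 and 2286 (all analyses gave 3705 to 5294 calls, against 4642), and 2 members higher in place of 4. With this scaling, Cdkn2b was at -0.913 and called, while Cdkn2c at 0.916 and Ccnd2 at 0.213 were not. Cdkn2a was at -0.348, Ccnd3 at -0.010, and Sh3pxd2a at -0.128. The median of all tested genes was not subtracted from these values. Higher calls fell to 2 for p53 targets, 3 for senescence genes and 1 for genes with a p53 element, and lower calls reached 4 for G1/S partners, 7 for p53 regulators and 4 for E2F targets. With the authors' normalized table Cdkn2a was at -0.008, Ccnd2 at 0.023 and Ccnd3 at -0.041. The fold change fell with transcript length (Spearman's rho -0.397 over 10339 genes, which are not independent) and less with GC content (-0.122). With length correction Cdkn2a was at -0.516, Cdkn2b at -0.904, Mdm4 at 0.101 and Sh3pxd2a at 0.969, G1/S partners had 1 lower call, and p53 regulators 2 lower and 4 higher. With GC content added the values were -0.187, -0.680, 0.021 and 1.153, respectively, for these 4 genes. GC content alone put Ccnd2 at 0.478 (edgeR adjusted p = 0.057), whereas length correction put it at 1.063 (edgeR adjusted p = 0.00015). DESeq2 put Cdkn2c at 1.362 (adjusted p = 0.0508). With up to 2 bases off, 39 genes with a p53 element were tested. Of these, 10 were lower (25.6%, against 22.1% of all tested genes) and 12 higher (30.8%, against 22.8%). Their median log2 fold change was 0.20. The cause of these shifts was not tested.

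Leaving out each library gave log2 fold changes from -0.004 to 0.181 for Cdkn2a (below 0 without TKS5 KO-labelled replicate 3), 0.942 to 1.697 for Cdkn2c (lost without WT replicate 3 or TKS5 KO-labelled replicate 2), 0.52 to 0.705 for Ccnd2 (lost without WT replicate 3) and -0.609 to -0.514 for Ccng1 (lost without replicate 2 of either group). Members called higher ranged from 2 (without WT replicate 3) to 4. Lower calls ranged from 1 to 2 for G1/S partners (1 without WT replicate 2 or TKS5 KO-labelled replicate 1 or 2), 1 to 3 for p53 regulators, 0 to 2 for E2F targets, 0 to 1 for genes of G2 and mitosis, 4 to 7 for TGFβ factors (4 without TKS5 KO-labelled replicate 3) and 1 to 2 for genes with a p53 element. Higher calls ranged from 3 (without WT replicate 3) to 7 for senescence genes and 1 to 2 for genes with a p53 element.

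A pairing by replicate number was not seen. The deviations of libraries with the same number correlated at -0.00101, -0.0637 and 0.082, and those with different numbers at -0.102 to 0.0973. These values cannot exclude a pairing. With the replicate block 4668 genes were called and no member changed its call. With the block and GC correction together, 4672 genes were called and Ccnd2 missed the threshold (0.485, edgeR adjusted p = 0.0561). Trp53 and Cdkn1c had too few reads to be tested.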
